A study of Paxillus involutus with 25 samples.

Results

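Paxillus involutus is an ectomycorrhizal basidiomycete of tree roots, and its mycelium was grown here in pure culture either on complete MMN agar or on the same agar made without KH2PO4, with no mineral present. The comparison takes the 10 cultures that the labels place on these media, 5 per medium, out of 25 cultures in the series. The other 15 received flakes of muscovite, phlogopite or K-vermiculite on the depleted agar. Every culture was strain ATCC 200175, started from agar plugs of 5 mm cut from the edge of 7-day-old colonies, and kept on cellophane over 30 mL of agar for 21 days at 25 °C in the dark. The agar without KH2PO4 is called K-depleted in the labels. KH2PO4 supplies both phosphate and potassium, and no replacement phosphate salt is named in the labels, so lack of potassium and lack of phosphate cannot be told apart. All cultures descend from 1 strain, and the measurement is of bulk mycelium, in which fewer hyphae of a kind and less RNA per hypha cannot be told apart.

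Potassium is the main cation of fungal cytoplasm, where it sets turgor and charge balance, and it enters through transporters and channels driven by the membrane potential. Phosphate is taken up by proton- or sodium-coupled transporters and stored as polyphosphate. In Saccharomyces cerevisiae, lack of phosphate switches on high-affinity transporters and secreted phosphatases through the transcription factor Pho4. Ectomycorrhizal fungi are known for passing both nutrients from soil to the host tree. Neither the count table nor the reference gene table gives a product or function for any gene ID, except that 2 IDs are gene symbols. The genes below are therefore described by their IDs, their levels and their neighbours on the reference sequence, and it was not checked which of them belong to potassium or phosphate pathways, nor whether mycelium markers were present.

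The 10 libraries held 21.0 to 35.3 M counts on complete medium (1 M being 1000000) and 25.8 to 33.3 M on K-depleted medium. Of 18032 gene IDs, 4255 had no count in any of the 10 libraries, and 12744 passed the low-count filter and entered the test. The tested gene with the fewest counts had 54 over the 10 libraries, and the untested gene with the most had 88. Replicates correlated at 0.987 to 0.995 (Pearson's r of log2 CPM across genes, where CPM is counts brought by TMM scaling to 1000000 per library), and cultures of different media at 0.945 to 0.960. CPM is not divided by gene length, so any order of genes by CPM is an order of counts and not of transcript numbers. K-depleted replicates 4 and 5 and complete replicate 5 stood farthest from their own groups by their share of extreme values. They were the highest or lowest of their 5 cultures in 54.5%, 52.2% and 51.0% of the genes that averaged 5 CPM or more, against 24.3% to 45.8% for the other 7 libraries. By mean correlation with its own group, complete replicate 3 (0.9908) stood slightly farther than complete replicate 5 (0.9910).

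Most transcripts differed in level between the media, and most of the differences were less than 2-fold. Called genes are those with an adjusted p below 0.05 in edgeR's quasi-likelihood test (Benjamini-Hochberg over all tested genes). There were 8543 of them (67.0% of 12744), 4270 higher (33.5%) and 4273 lower (33.5%) on K-depleted medium. The filter and the spread of each gene were taken from all 25 libraries, so gene p-values also draw on the mineral cultures. With the 10 libraries of the 2 media alone, 8345 genes were called. The edgeR adjusted p of single genes moved either way in that fit. For PAXINDRAFT_97773 it was 4.97e-08 and not 1.45e-14, and for PAXINDRAFT_173207 1.51e-11 and not 4.53e-10. Leaving out complete replicate 5, K-depleted replicate 4 or K-depleted replicate 5 gave 8384, 8465 and 8344 calls. With library totals alone in place of TMM, the median log2 change over all tested genes was -0.11, and higher genes made up 39.3% of the calls and not 50.0%, so the balance between the directions rests on the scaling.

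The median called gene rose 1.42-fold or fell 1.47-fold, and 58.3% of the higher and 52.6% of the lower genes changed less than 1.5-fold. A change of at least 2-fold was fitted for 1579 called genes, 12.4% of those tested. On K-depleted medium 707 of them were higher (5.55%) and 872 lower (6.84%). The 5 values of one medium lay apart from the 5 of the other in 1484 of the 1579, or 94.0%, beside 50.5% of all tested genes. Past 4-fold there were 113 higher and 164 lower genes, past 8-fold 37 and 43, and past 16-fold 15 and 12. When the test itself asked for a change of more than 2-fold (edgeR's glmTreat), 811 genes passed, 6.36% of those tested, with 359 higher (2.82%) and 452 lower (3.55%).

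**Figure D1:**
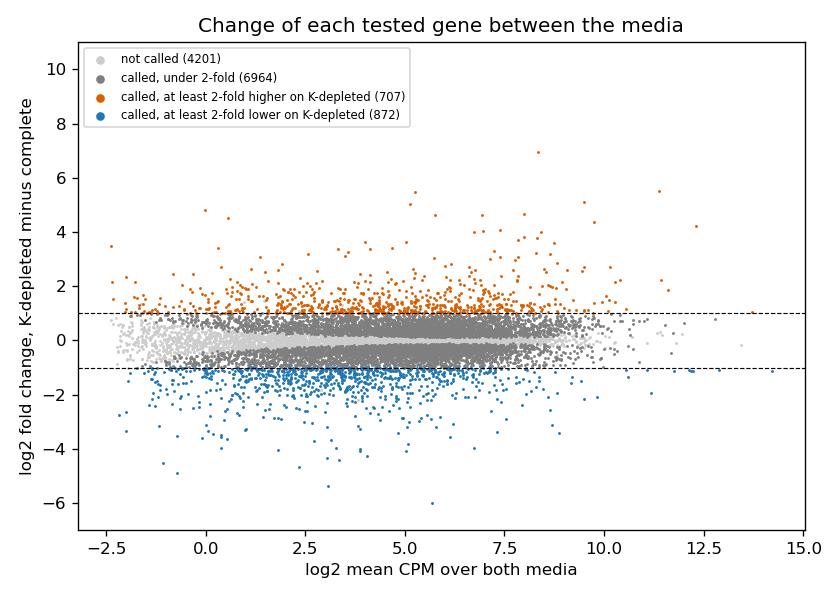
Log2 fold change of each of the 12744 tested genes (K-depleted minus complete, vertical axis) against the log2 of its mean CPM over both media (horizontal axis), 1 point per gene, with dashed lines at a 2-fold change. Of the called genes beyond the dashed lines, 707 lie above and 872 below.

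The directions were distributed differently over the range of levels. Among genes with a mean of 1 to 5 CPM over the 10 libraries, 6.07% of 1911 were at least 2-fold higher and 11.6% were at least 2-fold lower on K-depleted medium. Lower genes were also the larger share below 1 CPM (7.81% higher, 11.3% lower) and from 5 to 50 CPM (4.8% and 7.31% of 5647 genes). Among the 4304 genes from 50 to 500 CPM the order was the other way round, with 5.55% higher and 3.44% lower. Of the 216 genes above 500 CPM, 13.4% were higher and 6.94% lower. The share of called genes rose with level, from 36.2% below 1 CPM to 75.9% above 500 CPM. The median span in the reference was 1225 bp (quartiles 697 and 1910) for the genes at least 2-fold higher and 1200 bp (721 and 1940) for those at least 2-fold lower, beside 1413 bp (834 and 2220) for all tested genes. Genes that were not called also had a shorter median, 1316 bp, and the quartiles of all these sets overlap widely. No test was made of these distributions.

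The 10 genes that rose most on K-depleted medium rose between 18.6- and 124-fold. Only called genes that averaged 5 CPM or more and had no overlap between the media were ranked, so their separation below describes the choice. The widest change was that of PAXINDRAFT_97773, which measured 4.22, 4.34, 4.58, 7.14 and 5.53 CPM in the 5 cultures on complete medium and 583, 375, 568, 780.4 and 925 CPM on K-depleted medium. Its lowest depleted culture was still far above its highest complete one, although the depleted cultures spread more than 2-fold among themselves (log2 change 6.95 with SE 0.30, adjusted p 1.45e-14 by edgeR). The gene next to it in the reference, PAXINDRAFT_167546, was also among the 10, at 16.9, 14.3, 26.2, 24.5 and 13.4 CPM on complete medium and 442, 419, 514, 489 and 584 CPM on K-depleted medium (log2 change 4.68 with SE 0.24, adjusted p 1.35e-13 by edgeR).

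The second widest rise was that of PAXINDRAFT_103396. It measured 91.7, 95.4, 143, 157 and 77.9 CPM on complete medium and 5133, 4321, 5399, 5993 and 5251 CPM on K-depleted medium, with close agreement among the depleted cultures. PAXINDRAFT_169161 had the highest CPM of the 10, at 450.1, 505, 472, 525 and 642 CPM on complete medium and 9704, 8989.6, 9039, 8320.2 and 12263 CPM on K-depleted medium (log2 change 4.22 with SE 0.21, adjusted p 8.92e-15 by edgeR). Its depleted cultures lay far above every complete one. PAXINDRAFT_168505 stood at 73.4, 76.3, 56.6, 73.7 and 118 CPM on complete medium and 1717, 1482, 1401, 1270.1 and 2331 CPM on K-depleted medium, with complete replicate 5 and K-depleted replicate 5 the highest of their groups (log2 change 4.36 with SE 0.24, adjusted p 3.81e-13 by edgeR).

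PAXINDRAFT_86206 rose from 40.7 ± 10.4 CPM (SD, n = 5) to 1395 ± 97.8 CPM, which is 34.2-fold (log2 change 5.10 with SE 0.28, adjusted p 5.87e-13 by edgeR), with the depleted cultures within 1296 to 1496 CPM. The remaining 4 of the 10 started from means below 10 CPM. PAXINDRAFT_12839 ranged over 1.31 to 2.20 CPM on complete medium and 45.7 to 122 CPM on K-depleted medium, and its log2 change was 5.49. PAXINDRAFT_173207 had ranges of 1.43 to 2.89 and 53.4 to 72.8 CPM, with a log2 change of 5.04. For PAXINDRAFT_67249 the ranges were 3.03 to 5.39 and 71.2 to 146 CPM (log2 fold change 4.64), and for PAXINDRAFT_96838 6.84 to 11.8 and 142 to 291 CPM (log2 fold change 4.62). The edgeR adjusted p of these 4 genes lay between 6.35e-13 and 4.53e-10. Genes of lower level were not ranked, among them PAXINDRAFT_12840, the neighbour of PAXINDRAFT_12839. Named after its values were seen, that gene had means of 0.0653 ± 0.0436 CPM (SD, n = 5) and 1.90 ± 0.298 CPM and a log2 fold change of 4.81.

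The 10 genes that fell most on K-depleted medium fell between 15.6- and 63.4-fold. They were chosen in the same way, so their media do not overlap by construction. Their CPM was mostly low even on complete medium. The highest was that of PAXINDRAFT_170048, with 116, 86.6, 132, 122 and 49.1 CPM on complete medium and 1.56, 1.56, 1.10, 2.49 and 1.29 CPM on K-depleted medium. Complete replicate 5 was the lowest of its group there, and still lay far above every depleted culture (log2 change -5.99 with SE 0.37, adjusted p 7.39e-12 by edgeR).

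A pair of neighbours was also among the genes that fell most. PAXINDRAFT_171302 measured 16.9, 15.1, 12.0, 13.0 and 25.1 CPM on complete medium and 0.462, 0.702, 0.475, 0.180 and 0.210 CPM on K-depleted medium (log2 change -5.36 with SE 0.30, adjusted p 1.25e-13 by edgeR). The gene that follows it in the reference, PAXINDRAFT_101306, measured 17.5, 16.8, 11.1, 13.1 and 19.9 CPM on complete medium and 0.711, 0.975, 0.768, 0.793 and 0.659 CPM on K-depleted medium (log2 change -4.33 with SE 0.18, adjusted p 8.05e-17 by edgeR). Complete replicate 5 was the highest of its group for both genes of the pair.

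PAXINDRAFT_18778 measured 32.5, 31.0, 23.2, 25.6 and 44.1 CPM on complete medium and 1.49, 1.91, 2.45, 1.26 and 1.14 CPM on K-depleted medium. PAXINDRAFT_168940 stood at 66.5, 65.2, 63.4, 72.1 and 40.7 and 3.91, 3.51, 3.55, 3.57 and 3.56 CPM (log2 change -4.09 with SE 0.25, adjusted p 3.24e-12 by edgeR), with the depleted cultures nearly alike. PAXINDRAFT_177387 had the widest spread of the 10 on complete medium relative to its mean, at 20.3, 16.1, 25.1, 29.5 and 5.67 CPM, with complete replicate 5 far below the other cultures of its group yet above the 0.433 to 1.25 CPM on K-depleted medium (log2 change -4.40 with SE 0.39, adjusted p 1.62e-09 by edgeR). The other 4 genes were PAXINDRAFT_103314, PAXINDRAFT_140629, PAXINDRAFT_158236 and PAXINDRAFT_176296. Their means on complete medium were 9.70 ± 3.38, 27.5 ± 5.05, 27.8 ± 4.34 and 18.2 ± 4.27 CPM (SD, n = 5), and their means on K-depleted medium were 0.383 ± 0.102, 1.61 ± 0.234, 1.72 ± 0.691 and 1.17 ± 0.342 CPM. Their log2 fold changes lay between -4.66 and -3.96, with an edgeR adjusted p of at most 3.09e-11.

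**Figure D2:**
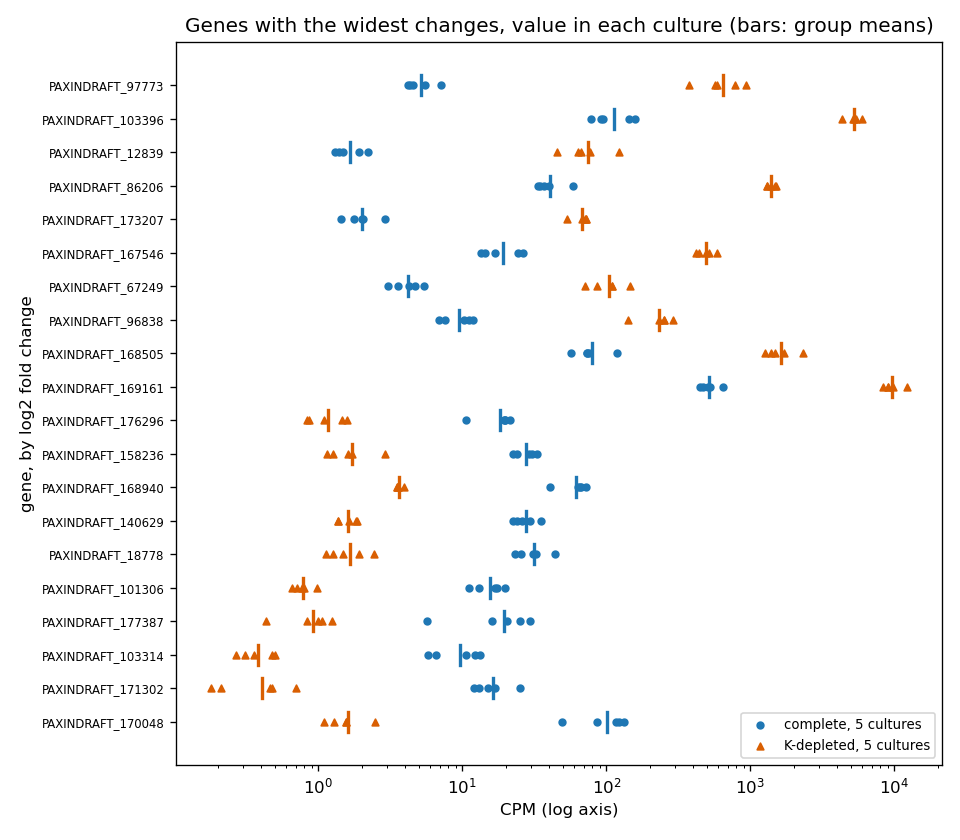
CPM on a log axis in each of the 10 cultures for the 10 genes that rose most and the 10 that fell most on K-depleted medium, ordered by log2 fold change; circles are complete medium, triangles K-depleted medium and bars the group means. The genes were chosen for having no overlap between the media. The raised genes reach levels up to 12263 CPM while the highest value of a lowered gene is 132 CPM.

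No called gene was without counts over the 5 libraries of a medium. None of them had 3 counts or fewer over the 5 libraries of either medium, and the smallest such total was 4 counts. Whether so few counts mean that the gene was expressed was not tested. For called genes that averaged 5 CPM or more, the smallest total was the 54 counts of PAXINDRAFT_103314 over the 5 depleted libraries. The breadth of the transcriptome differed slightly. Between 12002 and 12078 genes reached 1 CPM on complete medium and between 11949 and 11980 on K-depleted medium, a difference of -69.2 genes between the means (exact two-sided permutation test of 5 against 5 cultures, p 0.00794, the smallest the design allows, and 0.0159 adjusted over 2 tests).

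The genes changed at least 2-fold held a different part of the libraries in each medium. Those higher on K-depleted medium took 4.65% ± 0.314 (SD, n = 5) of the counts on complete medium and 14.0% ± 0.594 on K-depleted medium. Those lower took 12.4% ± 2.24 and 4.67% ± 1.40. Since the genes were chosen by their direction, these shares describe their weight and are no test of it. A large part of the weight of the lower genes belonged to 5 neighbouring genes described further on. Without those, the lower genes held 6.63% ± 0.288 of the counts on complete medium and 2.20% ± 0.227 on K-depleted medium.

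**Figure D3:**
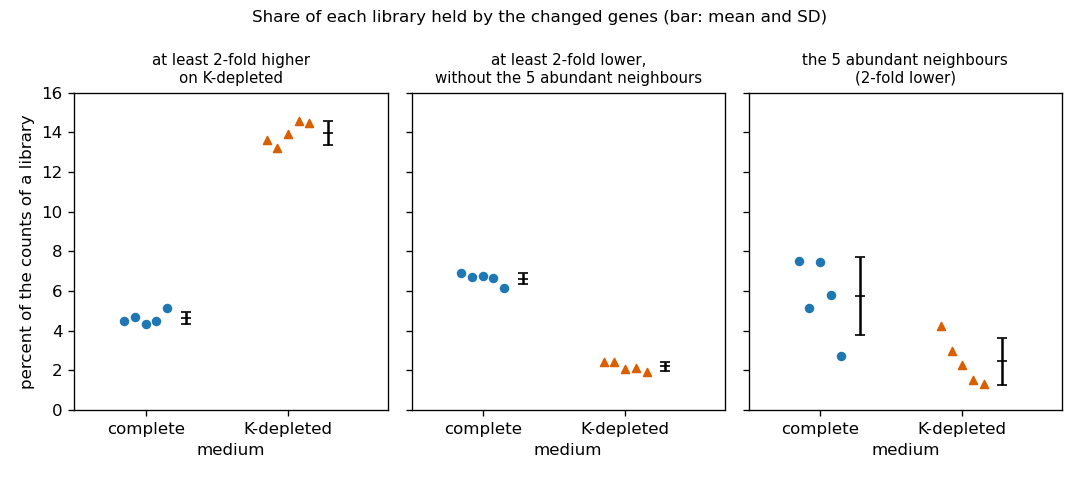
Percent of the counts of each library (vertical axis) on complete and K-depleted medium, 1 point per culture with the mean and SD beside it, for the genes at least 2-fold higher on K-depleted medium, for those at least 2-fold lower without the 5 abundant neighbours, and for those 5 neighbours. The first set goes from 4.65% to 14.0% and the second from 6.63% to 2.20% without overlap, while the ranges of the 5 neighbours overlap.

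The largest gains in CPM included genes that already had high counts on complete medium. The first was that of PAXINDRAFT_68958, at 8829, 9235, 7074, 7622 and 11315 CPM on complete medium and 19299.6, 19863, 17791, 16738 and 17296 CPM on K-depleted medium (log2 change 1.05 with SE 0.14, adjusted p 2.43e-07 by edgeR). The change is about 2-fold and did not pass the test for more than that (glmTreat adjusted p 1.0). Next in the size of the gain came PAXINDRAFT_169161 and PAXINDRAFT_103396, given above. PAXINDRAFT_65274 rose from 5157 ± 184 to 8904 ± 391 CPM (SD, n = 5), which is 1.73-fold (log2 change 0.79 with SE 0.08, adjusted p 2.09e-09 by edgeR). PAXINDRAFT_11343 measured 887, 1075, 1209, 989.8 and 697 CPM on complete medium and 4437, 4424, 5442, 4906 and 3615 CPM on K-depleted medium (log2 change 2.23 with SE 0.15, adjusted p 5.13e-13 by edgeR).

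The largest losses in CPM without overlap between the media began with PAXINDRAFT_103583. It measured 3654, 4565, 2994, 3571 and 3744 CPM on complete medium and 847, 737, 858, 765 and 1565 CPM on K-depleted medium, where replicate 5 stood well above the other 4 cultures (log2 change -1.96 with SE 0.19, adjusted p 3.65e-09 by edgeR). PAXINDRAFT_164864, with a long span of 8447 bp in the reference, measured 1398, 1281, 1813, 1859.6 and 987 CPM on complete medium and 337, 428, 349.9, 328 and 282 CPM on K-depleted medium (log2 change -2.09 with SE 0.17, adjusted p 2.33e-10 by edgeR). PAXINDRAFT_163925 fell from 2238 ± 210.3 to 886 ± 130.1 CPM (SD, n = 5), and PAXINDRAFT_18477 from 2041 ± 83.2 to 966 ± 128 CPM, log2 fold changes of -1.34 and -1.08 with edgeR adjusted p of 2.76e-11 and 1.95e-10. PAXINDRAFT_168556 fell by less, from 3816 ± 170.2 to 2782 ± 297 CPM (log2 change -0.46 with SE 0.10, adjusted p 0.000379 by edgeR).

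Of the 10 genes with the most counts by mean CPM over the 10 libraries, 3 changed less than 2-fold. Besides PAXINDRAFT_65274, PAXINDRAFT_166212 rose 1.54-fold, with 2662 to 4023 CPM on complete medium and 4544 to 5492 CPM on K-depleted medium (edgeR adjusted p 9.20e-06). PAXINDRAFT_169257 measured 11980.5, 12822, 10709.5, 11506 and 11897 CPM on complete medium and 10522, 11026, 10918, 9674 and 10676 CPM on K-depleted medium. Its ranges overlapped only narrowly, and the difference did not pass the test (log2 change -0.16 with SE 0.09, adjusted p 0.138 by edgeR). With library totals alone the same gene was called lower, at a log2 fold change of -0.26 (adjusted p 0.0112).

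Some genes changed at least 2-fold lay next to each other. The order of genes came from the reference table, in which a new sequence was taken to begin wherever the start position falls back. A break where the next start is larger would be missed, so some neighbours may lie on different sequences. Of the tested neighbours of genes changed at least 2-fold, 19.1% had themselves changed at least 2-fold, beside 12.4% of all tested genes. In 243 adjacent pairs both genes had changed that much, and 189 of these moved in the same direction and 54 in opposite directions. The same split over all tested adjacent pairs is not given here, so these counts are descriptive only. Annotated spans overlapped in 5 of the 189 pairs, where reads of one gene could have been counted for the other. Across all 10800 tested adjacent pairs the log2 fold changes of the neighbours correlated weakly, at a Pearson's r of 0.175, which is across genes and not across replicates. Unbroken runs of at least 3 such genes in 1 direction numbered 19, of which 5 were higher and 14 lower, with 62 genes in all. Of all called genes changed at least 2-fold, 707 were higher and 872 lower, and no expected number of runs was worked out.

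The raised run with the widest changes held 4 genes. It began with PAXINDRAFT_86206, given above. The next gene, PAXINDRAFT_172163, measured 10.5, 11.5, 14.4, 12.8 and 13.4 CPM on complete medium and 215, 156, 197, 197 and 236 CPM on K-depleted medium (log2 change 4.00 with SE 0.13, adjusted p 1.16e-18 by edgeR). PAXINDRAFT_172169 followed, at 32.6, 39.7, 32.2, 34.6 and 62.4 and 688, 639.7, 628, 633 and 643 CPM (log2 change 4.00 with SE 0.25, adjusted p 3.29e-12 by edgeR). In both PAXINDRAFT_86206 and PAXINDRAFT_172169 complete replicate 5 was the highest of its group, and in PAXINDRAFT_172163 it was not. The run closed with PAXINDRAFT_16635, a gene of low level that rose from 3.22 ± 0.462 to 7.89 ± 0.459 CPM (SD, n = 5; log2 fold change 1.29, edgeR adjusted p 1.19e-09). The gene after that, PAXINDRAFT_61777, fell, with a log2 fold change of -1.58 (edgeR adjusted p 4.78e-11), and the gene before the run had too few counts to be tested. The spans of the 4 genes lay 1164 to 4170 bp apart in the reference, with none overlapping.

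A lowered run of 4 genes consisted of genes of low CPM. PAXINDRAFT_167100 measured 1.07, 1.30, 1.04, 1.09 and 0.831 CPM on complete medium and 0.213, 0.351, 0.366, 0.361 and 0.479 CPM on K-depleted medium. PAXINDRAFT_8743 stood at 0.922 ± 0.332 and 0.238 ± 0.134 CPM (SD, n = 5), PAXINDRAFT_97287 at 5.89 ± 0.666 and 2.83 ± 0.765 CPM, and PAXINDRAFT_8745 at 1.39 ± 0.325 and 0.563 ± 0.130 CPM. The log2 fold changes in this order were -1.56, -1.87, -1.06 and -1.32, with edgeR adjusted p between 1.73e-07 and 6.21e-05. No culture on complete medium lay below one on K-depleted medium for any of the 4. The next gene in the reference, PAXINDRAFT_8746, fell as well, by less than 2-fold (log2 fold change -0.63, edgeR adjusted p 0.00787). Another lowered run of the same length had smaller changes on average and is given by its means only. PAXINDRAFT_102178 went from 14.9 ± 1.34 to 6.16 ± 0.461 CPM (SD, n = 5), PAXINDRAFT_172352 from 13.4 ± 0.644 to 6.31 ± 0.387 CPM, PAXINDRAFT_86979 from 19.6 ± 1.34 to 6.14 ± 0.493 CPM and PAXINDRAFT_17158 from 1.41 ± 0.438 to 0.699 ± 0.178 CPM. The values of the media overlapped in PAXINDRAFT_17158 and lay apart in the other genes of that run.

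The longest run, of 5 genes, had a wide spread between replicates. It includes PAXINDRAFT_177523, the gene with the highest mean CPM of all, which measured 38657, 25652, 30310.0, 21979.6 and 14161 CPM on complete medium and 20815, 15994, 9211, 8869 and 4812 CPM on K-depleted medium. The mean was 2.19-fold lower on K-depleted medium (log2 change -1.13 with SE 0.37, adjusted p 0.00982 by edgeR), but the ranges overlapped, and the cultures of 1 medium differed among themselves by more than the media did. The same held for PAXINDRAFT_87141, PAXINDRAFT_87133, PAXINDRAFT_87129 and PAXINDRAFT_87122, whose log2 fold changes lay between -1.14 and -1.08 and whose edgeR adjusted p lay between 0.00978 and 0.0153.

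The 5 genes shared their extreme cultures. Complete replicate 5 was the lowest of its group for each of them, and K-depleted replicate 1 the highest of its group for each. Together they took 7.50%, 5.15%, 7.47%, 5.81% and 2.73% of the counts in the libraries on complete medium and 4.23%, 3.00%, 2.26%, 1.52% and 1.30% on K-depleted medium. In the fit on the 10 libraries alone PAXINDRAFT_87133 and PAXINDRAFT_87122 were no longer called (edgeR adjusted p 0.0515 and 0.0539), and PAXINDRAFT_87122 was also lost without complete replicate 3 (0.0516). The gene before the run, PAXINDRAFT_87140, was not called (log2 fold change -0.67, edgeR adjusted p 0.229), and no further gene follows the run on its reference sequence as inferred from start positions. Their annotated spans are short, from 150 to 945 bp, and whether near-identical copies share their reads was not tested.

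**Figure D4:**
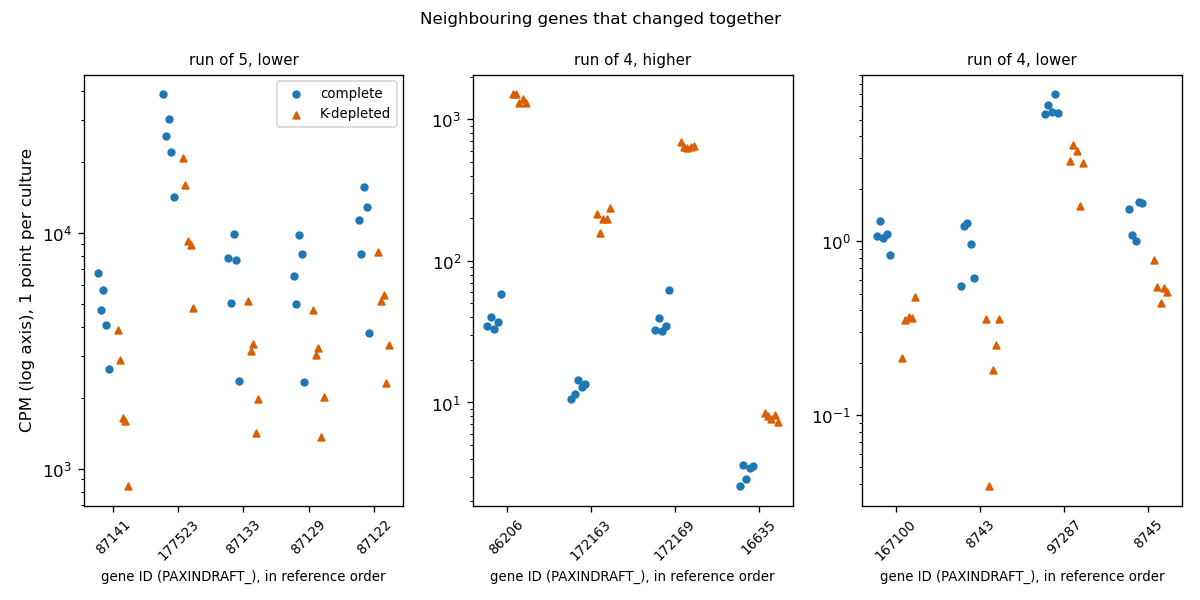
CPM on a log axis of the genes of the longest run and of the raised and lowered runs of 4 genes with the widest mean changes, 1 point per culture, in reference order; circles are complete medium and triangles K-depleted medium. The media are separate for every gene of the plotted runs of 4 and overlap for every gene of the run of 5.

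The share of a library taken by its leading genes depended on these 5. The 10 most abundant genes of each library took 9.63% ± 1.81 of its counts (SD, n = 5) on complete medium and 8.38% ± 0.870 on K-depleted medium, a difference that did not pass the test (-1.25 percentage points, exact two-sided permutation p 0.206, adjusted 0.206). Without complete replicate 5 the difference was -1.91 points and the adjusted p 0.0476. When the 5 genes were left out, a choice made after seeing the data, the 10 most abundant of the other genes took 5.67% ± 0.315 on complete medium and 7.46% ± 0.201 on K-depleted medium, a difference of 1.80 points. Since the 5 genes were lower on K-depleted medium in these same libraries, leaving them out itself moves the difference upward, and no test is drawn from it.

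The only gene symbols in the table are nps2 and pks3, whose names follow the usual abbreviations for nonribosomal peptide synthetases and polyketide synthases, enzymes that build secondary metabolites. The gene nps2 measured 60.4, 61.8, 62.0, 61.9 and 62.6 CPM on complete medium and 109, 104, 103, 126 and 123 CPM on K-depleted medium. Its values on complete medium were nearly identical, and every depleted culture was higher, by 1.83-fold on average (log2 change 0.87 with SE 0.07, adjusted p 5.02e-11 by edgeR). The gene pks3 measured 20.2, 17.9, 76.1, 55.6 and 13.3 CPM on complete medium and 42.9, 28.1, 43.7, 15.1 and 48.4 CPM on K-depleted medium. Cultures of 1 medium differed several-fold in pks3, the groups overlapped throughout, and no difference was called (log2 fold change -0.04, SE 0.46, edgeR adjusted p 0.951). The interval of 1.96 SE on either side of the estimate ran from -0.95 to 0.88 on the log2 scale.

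The cultures with minerals give the same genes on the depleted agar with flakes of a mineral added, and whether these released potassium was not tested. They enter here as values only (mean ± SD, n = 5 cultures each) for the pair of ranked genes with the widest change in each direction. No comparison is drawn, since these genes were chosen on the same 5 K-depleted libraries that such a comparison would use. Of the raised pair, PAXINDRAFT_97773 averaged 265 ± 60.5 CPM with K-vermiculite, 488 ± 134 with muscovite and 717 ± 149 with phlogopite, beside 646 ± 212 CPM on K-depleted medium alone and 5.16 ± 1.22 on complete medium. PAXINDRAFT_103396 averaged 1674 ± 528 CPM with K-vermiculite, 5532 ± 542 with muscovite and 4823 ± 993 with phlogopite, beside 5219 ± 601 CPM on K-depleted medium alone and 113 ± 34.7 on complete medium. These are the genes with the widest rise and the second widest described above. Of the lowered pair, PAXINDRAFT_170048 averaged 2.97 ± 2.06 CPM with K-vermiculite, 1.66 ± 0.463 with muscovite and 1.00 ± 0.187 with phlogopite (values on the media alone are given above). PAXINDRAFT_171302 averaged 1.17 ± 0.505 CPM with K-vermiculite, 0.844 ± 0.211 with muscovite and 0.463 ± 0.134 with phlogopite, beside 0.406 ± 0.215 CPM on K-depleted medium alone and 16.4 ± 5.22 on complete medium.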

How the data were processed

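The authors deposited 1 table of whole-number counts per gene, with 1 column per culture and no normalization, as the values show. Per the labels, libraries were made from poly(A) RNA with the TruSeq Stranded mRNA kit. Per the submitters' processing notes the tools were bcl2fastq 2.19, STAR 2.5.2b and HTSeq. Genome build, strand setting and handling of multi-mapped reads are not given in the sources here, so values of near-identical gene copies are uncertain.

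Groups were taken from the labels. The test ran in edgeR 4.0.16 under R 4.3.3: filterByExpr (minimum count 10, minimum total 15), TMM scaling, and 1 coefficient per group over all 25 libraries (biological coefficient of variation 11.9%), tested by quasi-likelihood (glmQLFit, robust) for K-depleted minus complete medium and adjusted by Benjamini-Hochberg over 12744 genes. Log2 fold changes are fitted values, and an SE is the absolute log2 fold change divided by the square root of F. On simulated counts for this comparison with 12697 genes, the fit recovered 100% of 100 genes changed 1 log2 unit and 70% of 100 genes changed by 0.5. It also called 9 unchanged genes. Every simulated gene had the same biological coefficient of variation, and the changed genes lay above 1 CPM. Real genes differ in their spread, and far more of them were called. These percentages check that the fit works and do not measure its power in the real comparison.

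The genes named are the 10 most raised and the 10 most lowered called genes that had a mean of at least 5 CPM and no overlap between media, the 5 in each direction with the largest difference in CPM and no overlap, nps2 and pks3, those among the 10 most abundant that changed less than 2-fold, and the 3 longest runs of neighbours (of runs equal in length, those with the larger mean change). Single measures per library were compared by exact permutation. The members, rules and tests were chosen with earlier results of these data known. Lists by product name and descriptions of protein or promoter sequence were not made, since the reference used here holds neither. That reference, of the assembly Paxillus involutus ATCC 200175 v1.0, held all 18032 IDs and served for order, distance and span length only. No pair of replicates agreed within counting noise (chi-square per degree of freedom from 15.2 to 85.9), so none was counted as a library deposited more than once. That they are biological replicates rests on the labels. Gene p-values weigh the difference between the media against the spread between replicate libraries, estimated over all 25 libraries. Cultures of equal number did not deviate together.

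Alternatives were library totals alone, RLE size factors, no filter, a filter at a mean of 5 CPM, the 10 libraries alone, the replicate number as a block, each library left out, DESeq2 1.42.0 and limma-voom (limma 3.58.1).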

Additional observations from a re-analysis of the deposited data

Results flagged for a closer look

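In groups of 5 cultures, a value was picked out when its gap to the nearest other value, divided by the range of the group, passed Dixon's 95% critical value of 0.71. Chance alone picks about 1 in 20 independent groups of normally distributed values. Here 8 of 92 groups were picked. The groups share cultures and most of their genes were chosen from these data, so no excess over chance can be read from this. In complete medium all 4 such values came from replicate 5. PAXINDRAFT_86206 was at 58.8 CPM there beside 33.3 to 39.9 CPM in the other 4 cultures, and its neighbour PAXINDRAFT_172169 at 62.4 CPM beside 32.2 to 39.7 CPM. PAXINDRAFT_168940 was at 40.7 CPM in the same culture beside 63.4 to 72.1 CPM, and PAXINDRAFT_176296 at 10.7 CPM beside 19.5 to 21.4 CPM. Without complete replicate 5 each of these genes kept its direction and its call, and 8384 genes were called in all.

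On K-depleted medium the values came from 3 cultures. PAXINDRAFT_103583 was at 1565 CPM in replicate 5 beside 737 to 858 CPM, the widest gap in absolute terms. PAXINDRAFT_173207 was at 53.4 CPM in replicate 4 beside 67.8 to 72.8 CPM. In replicate 1, PAXINDRAFT_172169 was at 688 CPM beside 628 to 643 CPM and PAXINDRAFT_168940 at 3.91 CPM beside 3.51 to 3.57 CPM, both small differences in very even groups.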

How the results depend on the processing

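Under the alternatives the count of called genes ran from 7243 (of 10166 tested) with a filter at a mean of 5 CPM to 8615 with DESeq2. It stayed within 1.5 times the reported 8543 under every alternative run. The same held for the calls in each direction and for the count past 2-fold, which ran from 1111 with that filter to 1645 with no filter. By glmTreat, 610 to 839 genes passed in place of 811. Similar counts can hold different genes. Library totals alone gave 8550 calls, of which 7635 were among the 8543 reported. Leaving out 1 library at a time gave 8238 to 8465 calls, and no gene called in both the reported fit and an alternative changed direction. Values of the number of genes at 1 CPM or more kept their direction and side of the threshold under the alternatives run.

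The share of counts in the 10 most abundant genes, -1.25 points as reported, turned to 0.336 points with the 100 most abundant genes and to 1.80 without the 5 neighbouring genes. Leaving out 1 library gave -0.752 to -1.91 points, the latter without complete replicate 5. Of the 44 named genes, pks3 changed sign, to 0.40, 0.17, 0.04 and 0.16 without complete replicates 3 and 4 and K-depleted replicates 2 and 4, and to 0.19 with limma-voom, in each case without a call, and ran from -0.25 to 0.40 over the libraries left out. The cause was not tested. The log2 fold changes of the other named genes moved by at most 0.32. PAXINDRAFT_167100, PAXINDRAFT_8743, PAXINDRAFT_97287 and PAXINDRAFT_8745 were not tested under the filter at 5 CPM.

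Replicate numbers did not pair the cultures. Correlations of the deviations of same-numbered cultures ran from -0.291 to 0.151. With a replicate block 8601 genes were called, 4269 higher and 4332 lower, 1572 of them at least 2-fold, and the block changed no call of a named gene. Of the genes below 1 CPM 36.2% were called, and of those from 1 to 5 CPM 57.2%, beside 70.5% from 5 to 50 CPM. Calls at reduced depth were not tested.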

Other observations

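Outside the longest runs, several runs of 3 neighbours held genes with wide changes; they were chosen after their values were seen. PAXINDRAFT_169161, one of the most raised genes, is preceded in the reference by PAXINDRAFT_169155 and PAXINDRAFT_169154. Those rose from 24.8 ± 3.70 to 116 ± 51.9 CPM (SD, n = 5) and from 29.8 ± 4.67 to 171 ± 68.9 CPM, log2 changes of 2.23 and 2.52. In another raised run, PAXINDRAFT_56670 went from 14.5 ± 9.71 to 236.5 ± 83.6 CPM (log2 change 4.03) and PAXINDRAFT_154770 from 1.86 ± 0.467 to 6.80 ± 1.15 CPM (log2 change 1.89), beside PAXINDRAFT_131456 at 29.5 ± 3.44 and 59.9 ± 3.63 CPM (log2 change 1.02).

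Among lowered runs, PAXINDRAFT_76416 fell from 202 ± 41.6 to 13.0 ± 2.54 CPM (SD, n = 5), a log2 change of -3.96, between PAXINDRAFT_162912 (log2 change -1.61) and PAXINDRAFT_76742 (log2 change -2.10). The pair of neighbours PAXINDRAFT_171302 and PAXINDRAFT_101306 was followed by PAXINDRAFT_181632, which fell from 0.626 ± 0.298 to 0.118 ± 0.0773 CPM (log2 change -2.38). In all of these genes the 5 values of one medium lay apart from the 5 of the other. That held for 94.0% of all called genes changed at least 2-fold and for 50.5% of all tested genes.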
